A study of Mus musculus with 4 samples.

Results

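The cytosolic ribosomal proteins are the structural proteins of the ribosomes that translate nuclear-encoded mRNA. Their genes were taken from the deposited table of hepatic transcripts by symbol (Rps and Rpl followed by a number and at most 1 letter out of a, x, l and y, with Rplp0 to Rplp2 and Rpsa), without use of any measured value. The rule found 81 of 27027 entries, 32 for the small subunit (40S) and 49 for the large subunit (60S). Rpl13 had no row under its own symbol and was not analysed here. Male C57BL/6 mice (C57BL/6J in the methods of the study), 9 to 12 weeks old and fasted for 10 h, were injected i.p. with 0.9% NaCl (control) or with acetaminophen (APAP) at 300 mg/kg, which causes acute liver injury. Liver RNA was taken at 24 h and at 48 h and pooled per group, from 6 control mice or 7 APAP-treated mice, and each of the 4 pools gave 1 library. The comparison addresses how hepatic mRNA for ribosomal proteins stood at both times after the toxic dose.

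A cytosolic ribosome holds 1 copy of nearly every ribosomal protein, so that cells make these proteins in matched amounts. In mammals, their mRNAs begin with a C and a run of pyrimidines, the 5′ terminal oligopyrimidine (TOP) motif, through which their translation follows the activity of the kinase mTOR. Ribosomal protein genes have left a large number of processed pseudogenes in the mouse genome, which look like copies of the mRNA.

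The start sites of members carried this pyrimidine run more often than promoters at large. RefSeq promoter windows (GRCm38.p6, 300 bases, 250 before and 50 after the annotated start) were found for 59 of the 81 members, with 71 windows in all. A C followed by at least 4 pyrimidines lay within 5 bases of the start in 30 of the 71 windows (42.3%), against 18.3% of all 32851 windows and 19.8% of the windows of genes that passed the filter on low counts. The sequences of 25 bases on each side of the start are shown for members with the highest and the lowest folds described further on. Capitals mark the pyrimidine run, where one was found, from the C nearest to the start. The first 6 are the members with the highest mean fold and the last 2 are those among the 6 lowest for which a window was found.
Rps6: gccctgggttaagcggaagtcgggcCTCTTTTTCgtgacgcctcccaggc
Rpl9: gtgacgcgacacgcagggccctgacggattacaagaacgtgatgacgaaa
Rpl14: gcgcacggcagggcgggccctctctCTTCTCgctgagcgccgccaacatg
Rpl13a: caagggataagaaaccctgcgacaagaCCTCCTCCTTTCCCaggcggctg
Rps15a: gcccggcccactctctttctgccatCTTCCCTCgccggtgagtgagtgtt
Rps28: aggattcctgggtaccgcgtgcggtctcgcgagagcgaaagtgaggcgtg
Rps2: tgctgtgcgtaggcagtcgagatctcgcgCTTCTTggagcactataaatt
Rps15: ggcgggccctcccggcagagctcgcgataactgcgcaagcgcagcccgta

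These windows lie at chr4:86857343-86857392 on the minus strand (Rps6), chr5:65391407-65391456 on the minus strand (Rpl9), chr9:120571492-120571541 on the plus strand (Rpl14) and chr7:45128721-45128770 on the minus strand (Rpl13a). The others lie at chr7:118116123-118116172 on the minus strand (Rps15a), chr17:33824538-33824587 on the minus strand (Rps28), chr17:24720038-24720087 on the plus strand (Rps2) and chr10:80292406-80292455 on the plus strand (Rps15). In Rps6, Rpl14 and Rps15a the C nearest to the start was the annotated start itself, and pyrimidines also lay directly before it. Rpl9 and Rps28, both among the members with the highest folds, had no run within 5 bases of the annotated start, and Rps2, among the lowest, had one. The starts used in these livers were not measured, so that a window without a run does not show that the mRNA lacks one. Among the 56 members with a window that passed the filter on low counts, the median fold at 48 h was 1.12 for the 28 with a run and 1.19 for the 28 without. At 24 h these medians were 1.08 and 1.11.

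Of the other motifs searched on both strands of the windows, CCGGAAG, the core bound by ETS-family factors such as GABP, stood in 36.6% of the members' windows, 8.86% of all windows and 17.1% of those of genes that passed the filter. AAGATGGC, a motif of YY1, stood in 9.86%, 2.75% and 4.50%. GGGCGG, the GC box, stood in 57.7%, 35.7% and 61.2%, and the TATA box TATAAA in 8.45%, 13.6% and 7.67%. A match in a window is a description of its letters and not of binding.

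In massive analysis of cDNA ends (MACE), each counted read stands for a fragment at the 3′ end of an mRNA, so that counts are not scaled by gene length. The libraries held 4859661 (control, 24 h), 5191990 (control, 48 h), 5698778 (APAP, 24 h) and 4938164 (APAP, 48 h) counted reads, and the size factors that made them comparable ran from 0.880 to 1.17. Values are given as normalized read counts (reads over the size factor), and a fold is APAP over the control pool of the same time. Parentheses after a fold hold its 95% exact interval, which covers counting error only and not the spread between mice. With 1 pooled library per group there was no replicate, no test could be made and no p-value is given. Calls were made in the 12113 entries that averaged 10 normalized reads or more, and needed a 1.5-fold difference upward or downward. Of the members, 78 passed this filter, 32 of the 40S and 46 of the 60S subunit. The other 3, Rpl10l, Rpl39l and Rpl3l, are paralogs known from testis or muscle, and had at most 2 reads in any library, below the floor of 3 reads, so that no fold was computed.

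The liver identity of the libraries was checked by marker genes. Of 9 hepatocyte markers (albumin and others) all passed the filter and none was at 0 reads. Their summed level was 94455 and 96569.7 RPM (reads scaled to a common library total) after vehicle (24 h and 48 h) and 95890.2 and 108384 RPM after APAP. Scaled by size factors, 3 of the 9 had a fold over 1 at each time, and their median fold was 0.873 at 24 h and 0.968 at 48 h. The interval lay below 1 for 6 of them at 24 h and 5 at 48 h, and above 1 for 3 at each time. Markers of several other cell types stood apart between treatments. The 12 myeloid markers summed to 115 and 124 RPM after vehicle and to 264 and 411 RPM after APAP, with 8 of 11 tested markers at least 1.5-fold higher at 24 h and 9 of 11 at 48 h, and none at 0 reads. The 8 stellate cell markers summed to 86.2 and 90.7 RPM against 125 and 244 RPM, with 5 of 8 at a fold over 1 at 24 h and 7 of 8 at 48 h. The 5 cholangiocyte markers summed to 25.9 and 32.6 RPM against 81.9 and 66.2 RPM, but only Spp1 and Sox9 passed the filter. Krt19, Krt7 and Epcam had more raw reads after APAP than after vehicle at 24 h (8 against 6, 15 against 8, 5 against 2). At 48 h they had fewer (8 against 13, 2 against 8, 7 against 10). The APAP library at 24 h was the largest, and scaled by size factors Krt19 had a fold of 0.999 at 24 h. The counts of Krt19, Krt7 and Epcam were small, and their intervals reached 1 at both times. The 8 endothelial markers summed to 145 and 167 RPM against 177 and 208 RPM, but with size factors 4 of 8 had a fold over 1 at 24 h and 3 of 8 at 48 h. The 6 erythroid markers went from 3653 and 2470.3 RPM to 2909.6 and 1585 RPM, with 1 marker at 0 reads in each 48 h library. None of the 10 lymphocyte or 6 cycling-cell markers reached a mean of 10 reads. Myeloid and stellate cells express ribosomal proteins too, and the part of such cells in the values below was not tested. In RNA of whole liver, a change in the cells present and a change of the RNA per cell cannot be told apart.

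As a family, ribosomal protein mRNAs were slightly more abundant in the livers of APAP-treated mice, and more so at 48 h than at 24 h. At 24 h the 81 members together held 71564 normalized reads after vehicle and 77675 after APAP, and at 48 h 70578 after vehicle and 81081 after APAP. Both APAP pools lay above both control pools. The summed fold at 24 h was 1.09 (1.07 to 1.10), and at 48 h it was 1.15 (1.14 to 1.16), whereas the control pools differed by a fold of 0.986 (0.975 to 0.997). As a share of all counted reads, the family took 1.30% and 1.27% after vehicle and 1.60% and 1.75% after APAP, and the exact binomial interval of the last value ran from 1.74% to 1.76%.

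Single members differed little from control, and mostly in the same direction. The median fold of the 78 members was 1.08 at 24 h and 1.15 at 48 h, against 1.01 and 0.990 over all tested genes. At 24 h, 55 of 78 members had a fold over 1 (70.5%), and 65 did at 48 h (83.3%), against 50.4% and 48.7% of all tested genes. In 42 of 78 members (53.8%) both APAP pools lay above both control pools, which held for 24.8% of all tested genes. The reverse order held for 6 members, among them Rpl10a, Rpl23a, Rpl3, Rps15 and Rps4l, or 7.69%, against 26.3% of all tested genes.

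The members were held in a narrow band. The log2 folds had a standard deviation across genes of 0.18 at 24 h and 0.19 at 48 h among the members, and of 0.61 at both times among the 4398 genes that averaged 100 reads or more, to which 77 members belong. By the threshold of 1.5-fold, 1 of 78 members was higher at 24 h (Rpl9), where 14.2% of all tested genes were higher, and 1 at 48 h (Rps6), where 13.6% were. No member was lower by 1.5-fold at either time, against 14.5% of all tested genes at 24 h and 14.4% at 48 h. At a lower threshold, 13 members were at least 25% higher at 24 h (16.7%) and 17 at 48 h (21.8%), while none was at least 20% lower at 24 h and Rps4l alone was at 48 h. These thresholds were passed by 26.3% of all tested genes in the higher and 26.3% in the lower direction at 24 h, and by 25.6% and 26.7% at 48 h. The members' share was thus below that of all genes at each threshold, by little for 25% higher at 48 h. The shares were not matched for level, as the median passing member had 786 normalized reads and tested genes start at 10. Between the control pools, the standard deviation of the log2 folds was 0.48 over all tested genes. It was 0.29 over genes that averaged 100 reads or more and 0.15 over the members.

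**Figure D1:**
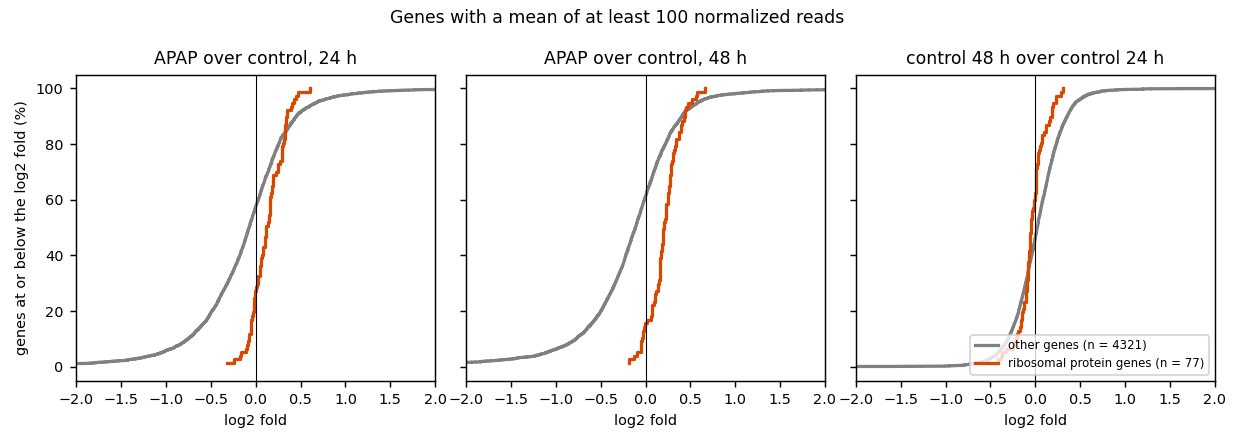
Cumulative share of genes (vertical axis, %) at or below each log2 fold (horizontal axis) for the 77 ribosomal protein genes (orange) and the other 4321 genes that averaged 100 normalized reads or more (grey), in the comparisons of APAP with control at 24 h and 48 h and of the 2 control pools. The orange curves are steep, most of each lies to the right of 0 in the APAP comparisons, and between the control pools the orange curve lies around 0.

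Counting error did not cover all of these small folds. Of the 77 members that averaged 100 reads or more, the interval lay above 1 for 35 at 24 h and for 48 at 48 h, and below 1 for 3 at 24 h (Rpl3, Rps29 and Rps4x) and 1 at 48 h (Rps2). Of all 4398 such genes, the interval lay above 1 for 19.8% at 24 h and 17.7% at 48 h, and below 1 for 34.2% and 36.0%. The interval lay above 1 at both times for 25 members, among them Rplp0, Rplp2, Rpsa, Rps3, Rps6, Rpl8, Rpl13a and Rpl14. No member had an interval below 1 at both times. Between the control pools, with no APAP involved, the interval (48 h over 24 h) lay above 1 for 6 of the 77 members and below 1 for 13, against 19.5% and 13.6% of the 4398 genes, so that an interval off 1 also occurs without treatment.

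The 2 control pools give the size of a difference without APAP. No member was at least 25% higher in the later than in the earlier control pool, where 20.6% of all tested genes were. At least 20% lower in the later pool were 5 members, or 6.41%, where 18.6% of all tested genes were. They were Rps6 at 0.745 (0.640 to 0.865), Rps23 at 0.751 (0.652 to 0.864), Rps12 at 0.766 (0.627 to 0.936), Rpl30 at 0.773 (0.606 to 0.983) and Rpl37 at 0.796 (0.720 to 0.880). The folds of these genes at 48 h therefore rest on a control pool in which they were low. For Rpl37 the fold at 48 h was 1.22 (1.10 to 1.34) against its own control pool and 0.967 (0.882 to 1.06) against the earlier one, and for Rpl30 these were 1.17 (0.925 to 1.48) and 0.905 (0.723 to 1.13).

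**Figure D2:**
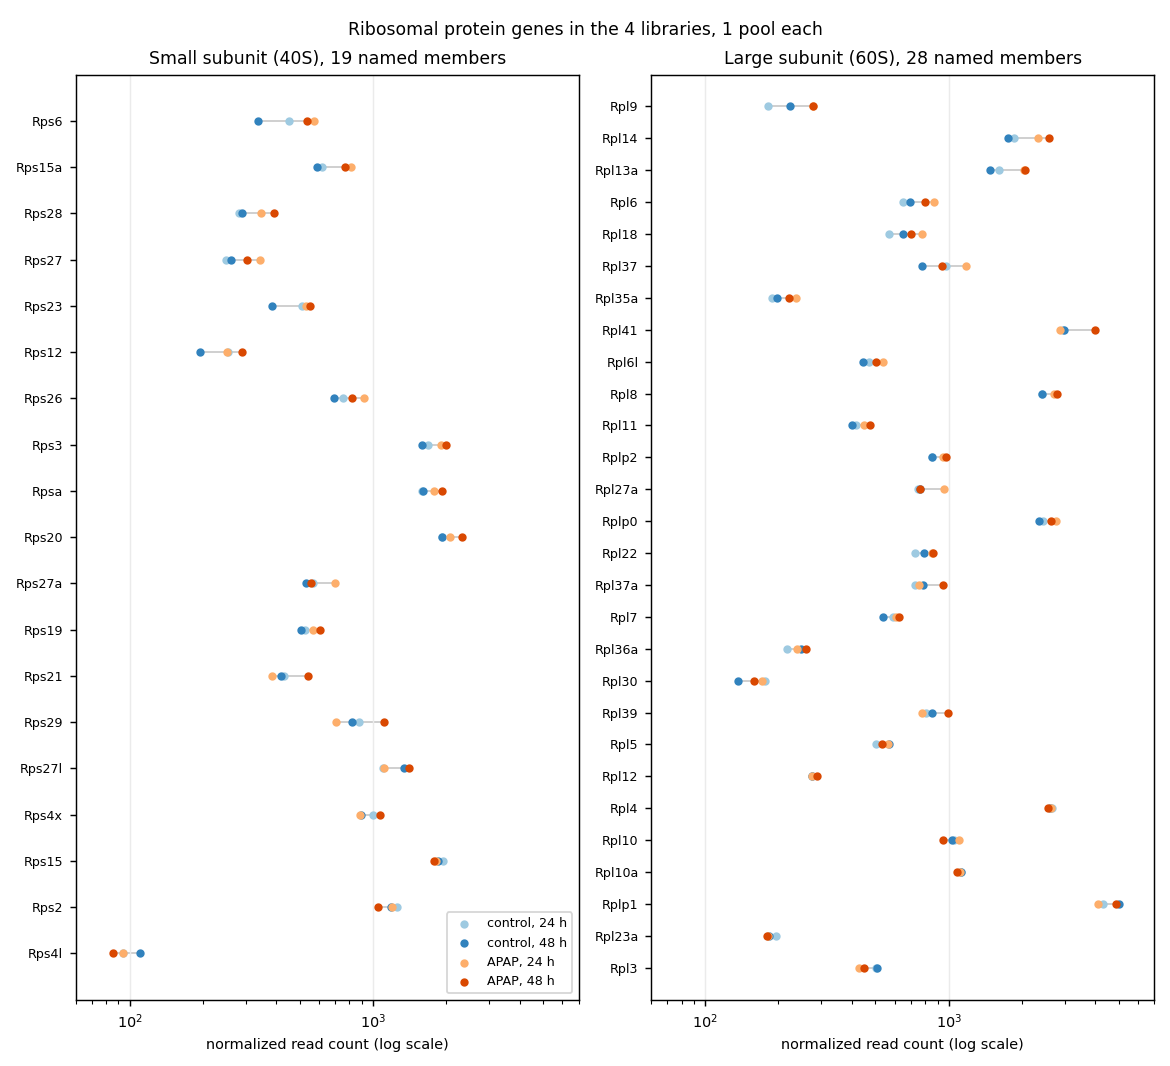
Normalized read counts (horizontal axis, log scale) of the members named in the text that passed the filter, in rows ordered by the mean fold of both times within the small subunit (left) and the large subunit (right), the highest at the top. Each point is 1 pooled library, blue for control and orange for APAP, light for 24 h and dark for 48 h, and the grey line spans the 4 values. For most of them the orange points lie at or to the right of the blue ones, and in the lowest rows they lie at or to the left.

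Among the proteins of the small subunit, Rps6 is the substrate of the S6 kinases downstream of mTOR. Rps6 (chr4:86854660-86857412, minus strand) had 454 and 338 normalized reads after vehicle at 24 h and 48 h and 575 and 533 after APAP. Both APAP values were above both control values. The fold at 24 h was 1.27 (1.12 to 1.44), and that at 48 h was 1.58 (1.37 to 1.82), the highest of all members at that time. With the control pools exchanged, the order turned, to 1.70 (1.49 to 1.95) at 24 h and 1.18 (1.03 to 1.34) at 48 h, so that the call at 48 h rests on the control pool of that time.

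Rps15a and Rps28, further components of the small subunit, were also among the 6 members with the highest mean fold. Rps15a had 618 and 586 normalized reads after vehicle and 814 and 769.8 after APAP, with folds of 1.32 (1.18 to 1.47) and 1.31 (1.18 to 1.47). Rps28 had 282 and 288 against 347 and 392, with folds of 1.23 (1.05 to 1.45) and 1.36 (1.16 to 1.59). For both genes the control pools differed little and the APAP pools stood apart from them.

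Rpsa, which is also known as the laminin receptor, had 1594 and 1603 normalized reads after vehicle and 1785 and 1920.2 after APAP, and folds of 1.12 (1.05 to 1.20) and 1.20 (1.12 to 1.28). Rps19, the gene most often mutated in Diamond-Blackfan anemia, had 525 and 508 against 567 and 604. Its folds were 1.08 (0.958 to 1.22) and 1.19 (1.05 to 1.34). Both genes had both APAP pools above both control pools, by less than 25%.

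At the lower end stood Rps2 and Rps15. Rps2 (chr17:24718116-24721929, plus strand), a protein near the mRNA entry of the small subunit, had 1257 and 1190.1 normalized reads after vehicle and 1198 and 1048 after APAP. Its folds were 0.953 (0.880 to 1.03) at 24 h and 0.881 (0.810 to 0.958) at 48 h. Rps15 had folds of 0.940 (0.881 to 1.0) and 0.966 (0.904 to 1.03). Their differences from 1 were within or at the edge of counting error, apart from Rps2 at 48 h, which turned to 1.06 (0.974 to 1.15) when scaled by library totals.

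A few members of the small subunit were low at 24 h and high at 48 h. Rps29 (chr12:69157722-69159186, minus strand), a small zinc-binding protein, had 878 and 819 normalized reads in the control pools, 705 after APAP at 24 h and 1115 after APAP at 48 h. The APAP pool was the lowest of the 4 libraries at 24 h and the highest at 48 h. The folds were 0.804 (0.728 to 0.887) and 1.36 (1.24 to 1.49), and their ratio, 48 h over 24 h, was 1.69 (1.48 to 1.94). Against the other control pool the folds were 0.861 (0.779 to 0.951) and 1.27 (1.16 to 1.39), so that they stayed on either side of 1. Rps4x, the X-linked form of Rps4, had 1004 and 891 reads after vehicle and 888 and 1069 after APAP, with folds of 0.884 (0.808 to 0.968) and 1.20 (1.10 to 1.31). Against the other control pool the folds of Rps4x were 0.996 (0.908 to 1.09) and 1.06 (0.974 to 1.16), and scaled by library totals its fold at 24 h was 1.01 (0.919 to 1.10), so that its lower value at 24 h rests on the control pool and the scaling.

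Rps21, Rps12 and Rps23 also had ratios, 48 h over 24 h, with intervals above 1. Rps21 had folds of 0.889 (0.774 to 1.02) and 1.30 (1.14 to 1.48). Rps12 had 0.990 (0.829 to 1.18) and 1.49 (1.24 to 1.8), and Rps23 had 1.04 (0.917 to 1.17) and 1.43 (1.3 to 1.64). Against the control pool at 24 h, the APAP pool at 48 h gave 1.14 (0.958 to 1.36) for Rps12 and 1.08 (0.95 to 1.22) for Rps23 and 1.3 (1.10 to 1.43) for Rps21. The APAP pool at 24 h, set against the control pool at 48 h, gave 1.29 (1.07 to 1.56) for Rps12. It gave 1.38 (1.21 to 1.58) for Rps23 and 0.919 for Rps21. With the control pools exchanged, the order of the times turned for Rps12 and Rps23, so that their order rests on the control pools. For Rps21 the order stayed.

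In the large subunit, the proteins of the stalk recruit translation factors. Rplp0, the base of the stalk and a common reference gene in real-time PCR, had 2439 and 2346 normalized reads after vehicle and 2764 and 2627 after APAP, with folds of 1.13 (1.07 to 1.20) and 1.12 (1.06 to 1.18). Rplp2 had folds of 1.11 (1.01 to 1.22) and 1.15 (1.05 to 1.26). Their partner Rplp1 had 4287 and 5029 reads after vehicle and 4121 and 4869.9 after APAP. Its folds were 0.961 (0.921 to 1.0) and 0.968 (0.931 to 1.01), and its lowest library was the APAP pool at 24 h. With the control pools exchanged they were 0.819 (0.787 to 0.853) and 1.14 (1.09 to 1.18), so that the direction at 48 h turned.

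Rpl9 (chr5:65388364-65391444, minus strand) had the highest fold of all members at 24 h. It had 181 and 223 normalized reads after vehicle and 276 and 278 after APAP, both above the controls. Its folds were 1.53 (1.26 to 1.86) at 24 h and 1.24 (1.04 to 1.49) at 48 h. With the control pools exchanged they were 1.24 (1.04 to 1.48) and 1.54 (1.26 to 1.87). As for Rps6, the APAP pools differed little from each other and the difference between the folds came with the difference between the control pools.

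Rpl14 (chr9:120571444-120574654, plus strand) and Rpl13a had high folds at both times with many reads behind them. Rpl14 had 1847 and 1749 normalized reads after vehicle and 2334 and 2592 after APAP, with folds of 1.26 (1.19 to 1.34) and 1.48 (1.39 to 1.58). Rpl13a, which also belongs to the GAIT complex that represses translation of inflammatory mRNAs, had 1614 and 1484 against 2031 and 2065, with folds of 1.26 (1.18 to 1.34) and 1.39 (1.30 to 1.49). Against the other control pool Rpl14 had 1.33 and 1.40 and Rpl13a 1.37 and 1.28, so that both kept intervals above 1 in every pairing.

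Rpl3 (chr15:80077791-80091868, minus strand), which lies close to the peptidyl transferase centre, had the lowest mean fold of all members. It had 505 and 509 normalized reads after vehicle and 428 and 449 after APAP, so that both APAP values were below both control values. The folds were 0.847 (0.744 to 0.965) at 24 h and 0.882 (0.775 to 1.0) at 48 h. Rpl23a, which lies at the exit of the nascent chain, had folds of 0.928 (0.755 to 1.14) and 0.977 (0.790 to 1.21), with 196 reads or fewer in each library.

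Rpl5 and Rpl11 form a particle with 5S rRNA that binds the p53 regulator Mdm2 when ribosome assembly is disturbed. Rpl5 had 502 and 570.4 normalized reads after vehicle and 563 and 533 after APAP, and folds of 1.12 (0.992 to 1.27) and 0.934 (0.828 to 1.05). Rpl11 had 415 and 399.9 against 451 and 474, and folds of 1.09 (0.948 to 1.24) and 1.19 (1.04 to 1.36). At 48 h Rpl5 was below and Rpl11 above its control pool, with intervals that overlapped narrowly. Against the other control pool Rpl5 had 0.987 (0.879 to 1.11) and 1.06 (0.934 to 1.20), and Rpl11 1.13 (0.985 to 1.29) and 1.14 (0.997 to 1.31), so that this contrast rests on the control pool.

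Rpl41, the smallest ribosomal protein, had 2956 and 2970.0 normalized reads in the control pools, 2867 after APAP at 24 h and 3993 after APAP at 48 h. Only the APAP pool at 48 h stood apart. Its folds were 0.970 (0.921 to 1.02) and 1.34 (1.28 to 1.41), with a ratio of 1.39 (1.29 to 1.49). Rpl18 and Rpl27a showed the opposite order, with folds of 1.37 (1.22 to 1.53) and 1.28 (1.16 to 1.41) at 24 h and of 1.08 (0.969 to 1.20) and 0.995 (0.898 to 1.10) at 48 h. With the control pools exchanged, Rpl18 had 1.20 (1.08 to 1.33) and 1.23 (1.10 to 1.38), so that its order rests on the control pools, and Rpl27a had 1.2 (1.14 to 1.37) and 1.02 (0.917 to 1.13).

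**Figure D3:**
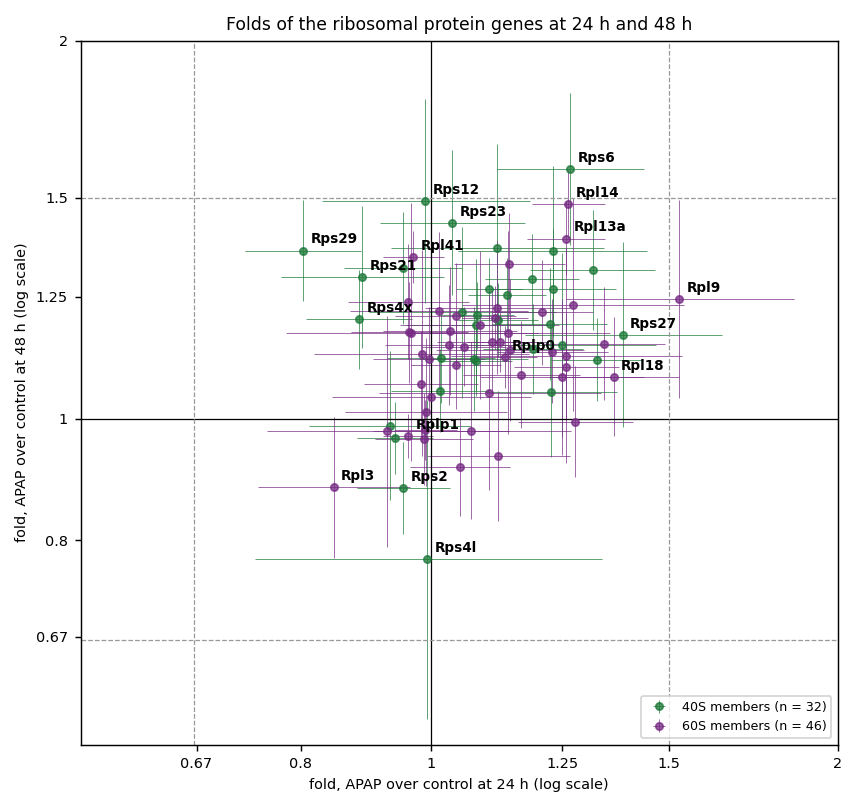
Fold of each of the 78 members at 24 h (horizontal axis) and at 48 h (vertical axis), both on log scales, green for the 40S and purple for the 60S subunit. Bars are 95% exact intervals (counting error only), solid lines mark a fold of 1 and dashed lines a fold of 1.5 in either direction. Most members lie above a fold of 1 on both axes, Rps29 lies farthest to the left with 0.804 and 1.36 (0.915 and 1.64 with library totals), and of all points only Rpl9 and Rps6 lie past a dashed line.

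Across the 78 members, 51 had a fold over 1 at both times, 14 at 48 h alone, 4 at 24 h alone and 9 at neither. The ratio of the folds, 48 h over 24 h, had a median of 1.04, against 0.970 over all 4398 genes that averaged 100 reads or more. Its interval lay above 1 in 17 members and below 1 in 7. This interval was computed for members only, so that no share of all genes can be set beside these counts. The log2 folds at 24 h and 48 h were weakly related over the 78 members (Pearson's r = 0.25, Spearman's rho = 0.23), each time with its own control pool. The subunits were alike at 24 h in their medians and sums, and at 48 h the 40S subunit stood higher against the control pool of that time. The median fold at 24 h was 1.08 for the 32 members of the 40S and 1.09 for the 46 of the 60S subunit, and at 48 h it was 1.20 and 1.13. Summed over its entries, the 40S subunit had folds of 1.08 (1.07 to 1.10) and 1.17 (1.16 to 1.19) at 24 h and 48 h. The 60S subunit had folds of 1.09 (1.07 to 1.10) and 1.13 (1.12 to 1.15), so that the intervals did not meet at 48 h. At least 25% higher at 48 h were 13 of 32 members of the 40S and 4 of 46 of the 60S subunit, and at 24 h these counts were 4 and 9. Between the control pools, 48 h over 24 h, the summed fold was 0.968 (0.951 to 0.985) for the 40S and 0.998 (0.984 to 1.01) for the 60S subunit. The higher 40S sum at 48 h therefore rests on the control pool of that time.

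Members with a short coding sequence had the higher fold at 48 h more often than long ones, as a description of these genes. Coding length, which the choice of members did not use, ran from 75 bases (Rpl41) to 1257 bases. Of the 10 members with at most 300 bases, 9 had a higher fold at 48 h, and the median ratio of their folds was 1.18. Of the 20 members with at least 600 bases, 10 had a higher fold at 48 h, and the median ratio was 1.01. Over the 76 members with a coding length, Spearman's rho between length and ratio was -0.22 and Pearson's r of the log2 values was -0.33, a weak relation. Among other genes that averaged 100 reads or more, the median ratio was 0.945 for 151 short and 0.970 for 3096 long genes.

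Paralog pairs allow a comparison of forms that can stand for each other in the ribosome. Rps27 had 249 and 261 normalized reads after vehicle and 345 and 304 after APAP, with folds of 1.39 (1.17 to 1.64) and 1.17 (0.984 to 1.38). Rps27l, a target of p53, had 1096 and 1338 against 1112 and 1408, with folds of 1.01 (0.933 to 1.10) and 1.05 (0.976 to 1.14). At 24 h the intervals of this pair did not meet. Over the control pool of the other time, Rps27l had 0.831 (0.769 to 0.899) and 1.29 (1.18 to 1.39). In Rps27l both 48 h libraries were above both 24 h libraries, and the control pools alone differed by a fold of 1.22 (1.12 to 1.33).

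Rpl22 had folds of 1.17 (1.05 to 1.29) and 1.08 (0.983 to 1.20), and its paralog Rpl22l1 of 0.983 (0.843 to 1.15) and 0.961 (0.810 to 1.14). Rpl7 had 1.03 (0.921 to 1.16) and 1.17 (1.04 to 1.32), and Rpl7l1 had 1.09 (0.912 to 1.31) and 1.20 (0.988 to 1.47). Rpl36a had 1.10 (0.915 to 1.33) and 1.05 (0.877 to 1.3), and Rpl36al had 0.984 (0.899 to 1.08) and 0.907 (0.828 to 0.993), the last of which turned to 1.09 when scaled by library totals. In each of these pairs the intervals overlapped at both times.

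Rps4l had 94.4 and 110.4 normalized reads after vehicle and 93.7 and 85.3 after APAP, with folds of 0.993 (0.740 to 1.34) and 0.773 (0.576 to 1.03), against 0.884 and 1.20 for Rps4x. GENCODE annotates Rps4l as a transcribed processed pseudogene and Rpl6l as a processed pseudogene, although their symbols met the rule. Rpl6l had folds of 1.14 (1.01 to 1.3) and 1.13 (0.996 to 1.29). Rpl10, the X-linked form, had folds of 1.05 (0.964 to 1.14) and 0.915 (0.837 to 1.0), and its retrogene Rpl10l had no read in any library. Rpl39 had folds of 0.963 (0.872 to 1.06) and 1.17 (1.07 to 1.29), and Rpl39l had 2 reads after APAP at 48 h and none elsewhere. Rpl3l had 1 read in each control pool and none in the APAP pools. A count of 0 allows up to 3 reads, which is between 0.526 and 0.617 RPM in these libraries.

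Rps27a, which is made as a fusion with ubiquitin, had 569.6 and 532 normalized reads after vehicle and 698 and 559 after APAP, with folds of 1.23 (1.10 to 1.37) and 1.05 (0.931 to 1.19). Only the APAP pool at 24 h stood above the other libraries.

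Shared sequence limits how well reads were assigned to single members. For 67 of the 81 members, the last 300 bases of the transcripts matched a transcript of at least 1 other gene (at least 95% identity over at least 100 bases). Of 679 such pairs, 656 were with pseudogenes. Such a match is called a shared 3′ end here, although its place in the other transcript was not checked. The table lists 208 entries named as pseudogenes of members, and these held 42033, 42382, 60084 and 55348 reads in the order control 24 h, control 48 h, APAP 24 h and APAP 48 h, against 62950, 65826, 91197 and 86477 reads of the members. Of the 55 members with at least 1 such entry, 30 had fewer reads than their pseudogene entries together, which held up to 9.26 times as many (Rps12). Levels are therefore not compared between members.

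The pseudogene entries had folds close to those of their members. Summed over all of them, the fold at 24 h was 1.07 (1.06 to 1.08), and that at 48 h was 1.14 (1.13 to 1.16). For 48 members with at least 100 reads in such entries, the fold of the entries and that of the member were within 25% of each other (larger over smaller) in 45 cases at 24 h and in 47 at 48 h. Across these 48 members, which share libraries and may share reads, the log2 folds correlated with r = 0.69 (rho = 0.68) at 24 h and r = 0.73 (rho = 0.79) at 48 h. The exceptions were Rpl35a (1.26 against 0.949 for its pseudogene entries), Rpl14 (1.26 against 1.0) and Rpl3 (0.847 against 1.07) at 24 h, and Rps26 (1.19 against 1.65) at 48 h.

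The 3 pseudogene entries of Rpl9 held 5.98 times the reads of the gene and had folds of 1.29 (1.20 to 1.39) and 1.32 (1.22 to 1.43). Added to the gene, they gave 1.32 (1.23 to 1.41) and 1.31 (1.22 to 1.41). The 4 pseudogene entries of Rps6 held 2.31 times its reads, and the sum had folds of 1.21 (1.13 to 1.29) and 1.38 (1.28 to 1.49). With these reads added no member reached 1.5-fold at either time. For Rpl3, the sum gave 1.01 and 0.899 in place of 0.847 and 0.882.

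The 11 members that passed the filter and shared no 3′ end mostly had folds over 1 as well. Among them were Rpl4, Rpl6, Rpl12, Rpl14, Rpl27a, Rpl37, Rpl37a, Rps3, Rps20 and Rps23. Their median fold was 1.10 at 24 h and 1.21 at 48 h, and 9 of 11 were over 1 at each time. Rpl4 stood at 0.990 and 0.979. Some of them nevertheless have entries named as their pseudogenes, with 4581 reads for Rps23 (2.27 times its own), 2216 for Rpl14 and 502 for Rpl12. In 15 members the entry also lists small RNA genes, whose part in poly(A)-primed reads was not tested.

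**Figure D4:**
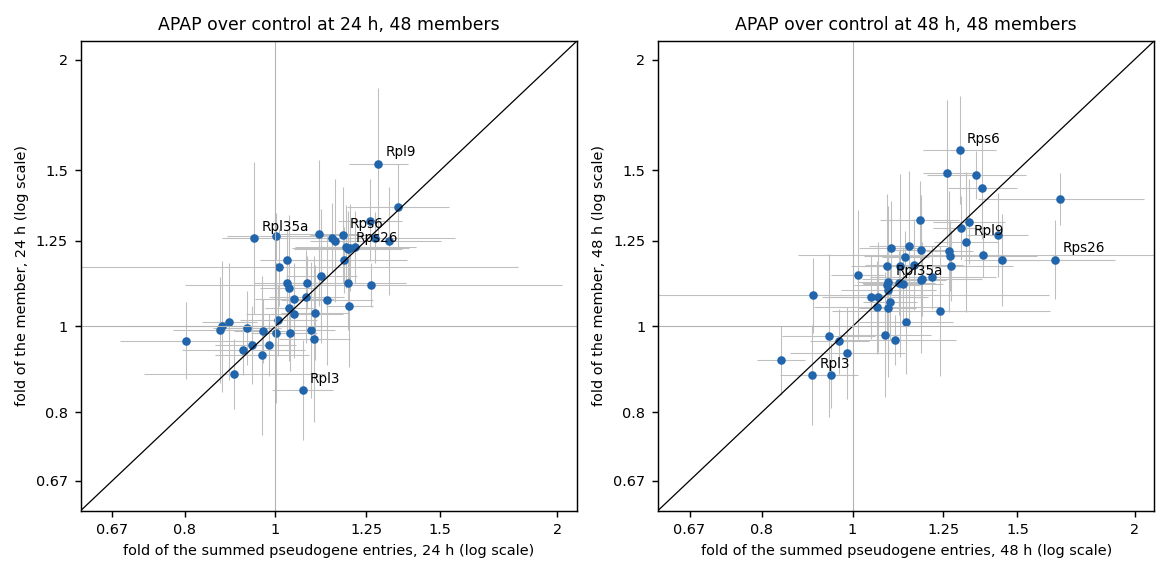
Fold of 48 members (vertical axis) against the fold of the summed pseudogene entries of the same member (horizontal axis), both on log scales, at 24 h (left) and 48 h (right). Bars are 95% exact intervals (counting error only) and the diagonal marks equal folds. Points follow the diagonal, with Rpl35a and Rpl3 off it at 24 h and Rps26 at 48 h.

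Other genes of translation were counted in the same way, from lists of known roles. A list of 8 ribosomal components and genes related to them by name, such as Rps19bp1, held symbols outside the rule. None of them was at least 1.5-fold higher or lower at either time, and the median fold was 1.13 at 24 h and 1.10 at 48 h. Rack1, a scaffold on the small subunit, was the highest of them by the mean of both times with 1.17 (1.10 to 1.2) and 1.20 (1.13 to 1.27), and Rpl36al the lowest. Of 19 translation factors and related genes known for TOP mRNAs, 3 were higher and none lower by 1.5-fold at 24 h, and 1 was higher and 1 lower at 48 h. These counts were near or below the shares of all tested genes, 14.2% higher and 14.5% lower at 24 h and 13.6% and 14.4% at 48 h. The median fold of the 19 genes was 1.12 and 1.05. The histone chaperone Nap1l1 had 1.66 (1.34 to 2.06) and 1.57 (1.2 to 1.98), and the helicase Eif4a2 had 0.720 (0.557 to 0.929) and 0.466 (0.364 to 0.595). After exchange of the control pools Nap1l1 had 1.86 and 1.40 and Eif4a2 0.50 and 0.67, so that the calls at 48 h were lost.

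Genes of ribosome biogenesis, which make and process rRNA in the nucleolus, had a higher median fold than the ribosomal proteins at 24 h (1.26 against 1.08) and a similar one at 48 h (1.16 against 1.15). Of 44 tested, 13 were higher and 1 was lower by 1.5-fold at 24 h, and 13 and 1 at 48 h, against the 14.2% and 13.6% higher and the 14.5% and 14.4% lower of all tested genes. At 24 h 35 of 44 were over 1, and at 48 h 32 of 44. By the mean of both times Myc was the highest and Polr1b the lowest. Myc, a transcription factor that drives ribosome production, had 4 and 11 reads after vehicle and 36 and 21 after APAP, and folds of 6.74 (2.42 to 26.1) and 1.67 (0.769 to 3.83). Set against the other control pool these were 2.60 (1.29 to 5.66) and 4.33 (1.46 to 17.3). Polr1b, a subunit of RNA polymerase I, had 0.910 (0.535 to 1.56) and 0.530 (0.288 to 0.951).

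Mitochondrial ribosomal proteins, which build the separate ribosome of mitochondria, stood below the median of all tested genes (1.01 and 0.990). Genes that averaged 100 reads or more had medians of 0.955 and 0.931, closer to those of this list. Of 75 tested, 1 was higher and 4 were lower by 1.5-fold at 24 h, and none was higher and 6 were lower at 48 h, also below the shares of all tested genes. The median fold was 0.918 and 0.874, and 28 and 16 of 75 were over 1. The interval lay above 1 for 6 of 75 at 24 h and 1 at 48 h, and below 1 for 15 and 26. Of genes that averaged 100 reads or more, it lay above 1 for 19.8% and 17.7% and below 1 for 34.2% and 36.0%. Some of the 75 averaged fewer reads than that. By the mean of both times Mrps18c was the highest with 1.54 (1.15 to 2.08) and 1.12 (0.848 to 1.5), and Mrpl23 the lowest with 0.608 (0.478 to 0.772) and 0.642 (0.501 to 0.821). Mrps18c had 1.26 (0.960 to 1.65) at 24 h against the other control pool, which ended its call.

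Genes of the TOR pathway were spread on both sides of 1. Of 18 tested, 4 were higher and 1 lower by 1.5-fold at 24 h, and 1 was lower at 48 h, against 14.2% higher and 14.5% lower of all tested genes at 24 h and 13.6% and 14.4% at 48 h. The medians were 0.981 and 0.915. By the mean of both times, Eif4ebp1, the repressor of cap-dependent translation that mTOR inactivates, stood highest with 1.61 (1.41 to 1.84) and 1.31 (1.15 to 1.5), and Sesn3, an inhibitor of mTORC1, the lowest with 0.709 (0.433 to 1.16) and 0.714 (0.479 to 1.06). When the control pools were swapped Eif4ebp1 had 1.46 and 1.45, which ended its call, and Sesn3 had 0.463 (0.296 to 0.715) and 1.09 (0.698 to 1.72). Of 20 aminoacyl-tRNA synthetases, 3 were higher and 2 lower at 24 h, and 2 and 1 at 48 h, shares near to or below those of all tested genes, with medians of 0.924 and 0.974. The interferon-inducible Wars had 2.55 (1.73 to 3.83) and 0.860 (0.588 to 1.26), and Tars had 0.60 (0.511 to 0.704) and 0.629 (0.530 to 0.745). Against the control pool of the other time Wars had 1.60 (1.16 to 2.23) and 1.37 (0.883 to 2.14).

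**Figure D5:**
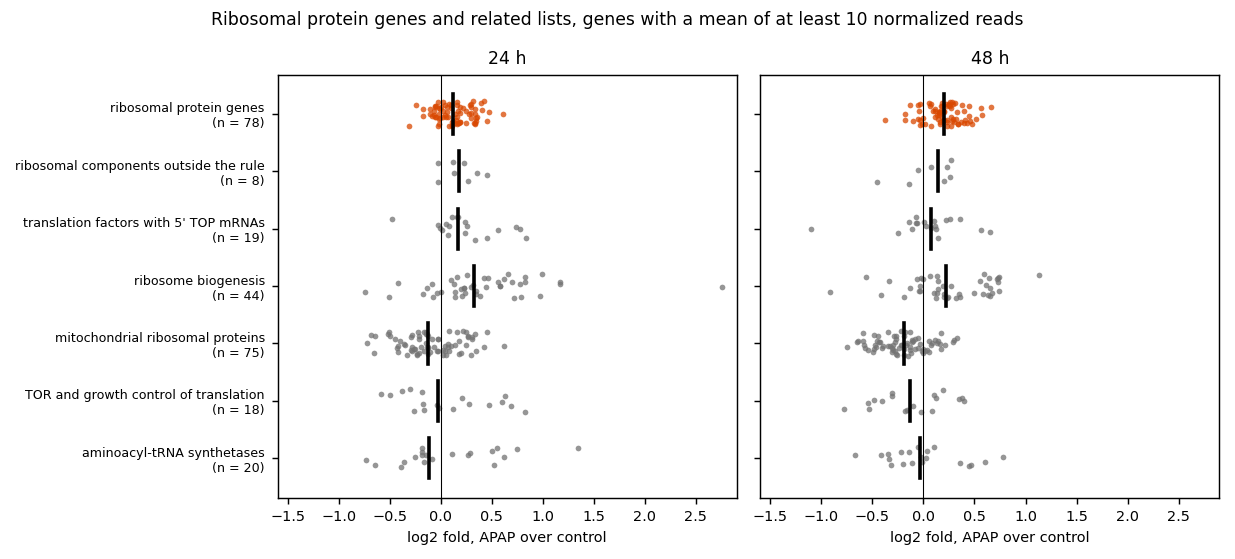
Log2 fold of APAP over control (horizontal axis) at 24 h (left) and 48 h (right) for the 78 ribosomal protein genes (orange) and the tested genes of 6 related lists (grey), each point 1 gene and the black bar the median. The ribosomal protein genes form a narrow cloud that lies mostly to the right of 0 and reaches to its left, with medians of 0.12 and 0.20. Ribosome biogenesis genes are wider and have medians of 0.33 and 0.22, and mitochondrial ribosomal proteins have medians of -0.12 and -0.19, all scaled by size factors.

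The size of the family's fold depended on the scaling of the libraries. Scaling by library totals in place of size factors moved the median log2 fold of all tested genes by 0.19 at 24 h and 0.27 at 48 h, and members at a fold over 1 went from 55 to 76 of 78 at 24 h and from 65 to 77 of 78 at 48 h. Rpl3 then stood at 0.964 and 1.06, Rps15 at 1.07 and 1.16 and Rplp1 at 1.09 and 1.16, so that the side of 1 on which the lowest members lie depends on the scaling. Relative to the median of all tested genes, the median member was higher by 0.11 at 24 h and by 0.22 at 48 h on the log2 scale. Scaling by 1 factor per library cannot alter this difference, because it shifts every gene alike. The difference depends on the genes compared. Those that averaged 100 reads or more had median log2 folds of -0.067 and -0.10, against 0.0072 and -0.015 of all tested genes.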

How the data were processed

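Counts were deposited by the authors as reads per gene from 4 MACE libraries. RNA of all mice of a group was pooled at equal shares before library preparation, duplicates were removed by unique molecular identifiers, and reads were mapped to mm10 and counted by HTSeq. Versions are not given in the sources used here, nor is the handling of reads that match several genes. The deposited table also holds RPM values, and the authors' log2 ratios, p-values and false discovery rates, which were not used.

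Size factors (DESeq2 1.42.0, median of ratios over all genes, R 4.3.3) and folds (Python 3.11.15, scipy 1.17.1) were computed from the counts. No model was fitted for a test. A count of 3 reads or fewer was set to 3 in a fold. The interval of a fold is the 95% Clopper-Pearson interval of the share of APAP reads, and that of a ratio of folds is the exact conditional interval of the odds ratio of the 4 counts, both scaled by the size factors. The procedure was tested on simulated data. Gene positions were taken from GENCODE mouse release 21 (GRCm38), matched by Ensembl identifier for 26964 of 27027 entries and all 81 members. The transcript ends of members were compared with whole transcripts of all genes by blastn 2.17.0. RefSeq gave the promoter sequences.

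The members and lists were chosen with earlier results of these data known. Named genes are the 6 members with the highest and the 6 with the lowest mean log2 fold, members past 1.5-fold, a list of well-known members and paralog pairs, and the highest and lowest gene of each related list; a few members that these rules name or list are not reported here. Rps29, Rps21, Rps12, Rps23, Rpl41, Rpl18, Rpl27a and members listed for a count or a pseudogene comparison were named after their values were seen. Alternatives were edgeR 4.0.16 TMM factors, library totals, size factors without the members, the other control pool or both, other filters and thresholds, a pseudocount of 1, members with unshared 3′ ends, and pseudogene reads added.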

Additional observations from a re-analysis of the deposited data

Results flagged for a closer look

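Rps29 and Rps4x lay below their control pool at 24 h and above it at 48 h, with the counting interval on opposite sides of 1. Rps29 had a fold of 0.804 at 24 h and of 1.36 at 48 h. Rps4x had a fold of 0.884 at 24 h and of 1.20 at 48 h. The difference between the times was not tested over mice, since each value rests on 1 pooled library, and each time has its own control pool. With the control pools exchanged, the folds were 0.861 and 1.27 for Rps29, and 0.996 and 1.06 for Rps4x, whose intervals then reached 1 at both times. With library totals, Rps29 had 0.915 (0.828 to 1.01) and 1.64 (1.49 to 1.79).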

How the results depend on the processing

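Each group is 1 pool, so that mouse-to-mouse spread is unknown, folds near 1 cannot be separated from differences between pools, and intervals cover counting error only. No paired analysis was possible because there is 1 library per group and no replicate number. No filter on low counts changed no value, since the 3 members left out have no fold. With library totals, 5 members were higher by 1.5-fold at 24 h and 17 at 48 h, the interval lay above 1 for 62 at 24 h and below 1 for 0 at both times, the summed fold was 1.24 and 1.38 and the median log2 fold 0.30 and 0.47. Of the named folds whose interval did not reach 1, under that scaling Rps4x at 24 h (1.01), Rps2 at 48 h (1.06) and Rpl36al at 48 h (1.09) moved to the other side of 1. TMM factors gave a summed fold of 1.10 at 24 h. Against the other control pool, 2 members were higher at 24 h, 1 at 48 h (Rpl9 in place of Rps6), 5 at 24 h and 3 at 48 h had an interval below 1, and the summed fold was 1.10 and 1.13. With both control pools summed, 0 members were higher at either time and 4 had an interval below 1 at 48 h. With shared 3′ ends left out (11 members), 0 were higher at either time, 7 at 24 h and 8 at 48 h had an interval above 1 and 0 below, and the summed fold was 1.12 and 1.20; the counts are smaller because fewer members were counted. With pseudogene reads added, 0 were higher at either time, and 5 at 24 h and 3 at 48 h had an interval below 1. At thresholds of 25% higher or 20% lower, 13 were higher at 24 h, 17 at 48 h and 1 lower at 48 h, and at a threshold of 2, 0 were higher. By the interval, 35 were higher and 3 lower at 24 h, and 48 and 1 at 48 h. Of 336 folds of named genes under 4 alternatives, 254 stayed within their interval, 79 left it, 49 of them with library totals, and 3 are those given above. The alternatives for counts of intervals were added after seeing the data. The cause of these changes was not tested.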
